A study of Mus musculus with 6 samples.

Results

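Endoplasmic reticulum (ER) stress genes were examined in the colon of mice with dextran sulfate sodium (DSS) colitis, with and without the gut bacterium *Bacteroides vulgatus*. The 10 genes were taken by symbol from the 18477 genes of the deposited table: Hspa5, Hsp90b1, Dnajb9, Sdf2l1, Pdia4, Ern1, Ern2, Xbp1, Atf4 and Ddit3. All mice were male C57BL/6, 6 to 8 weeks old, and drank 2% DSS from day 8 to day 14. The DSS group (n = 3) received PBS by gavage once a day for 14 days, and the DSS+BV group (n = 3) received *B. vulgatus*, a type culture collection strain, in PBS on the same days. The labels give each library as a colon sample and do not say which stretch of colon was taken or whether mice were pooled, and each library is called a mouse here. No library of a mouse without DSS was analysed here, so the values compare 2 inflamed groups and do not show how far either lies from a healthy colon.

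The ER folds secreted and membrane proteins, and when unfolded proteins gather there, 3 sensors in its membrane start the unfolded protein response. IRE1 (Ern1 and Ern2) cuts the Xbp1 transcript so that it encodes an active factor, PERK raises the translation of Atf4, and ATF6 is cut to release a factor that switches on chaperone genes. In the colon, goblet cells, which secrete mucin, and plasma cells, which secrete antibody, carry a high folding load, and Ern2 is the IRE1 of mucus-producing epithelium. Counts per gene do not separate cut from uncut Xbp1 transcripts and do not show the translation of Atf4, so the values below are transcript levels and not the activity of either branch.

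None of the 10 genes differed between the groups beyond the spread between mice. All 10 passed the filter on low counts, and 0 were called by edgeR's quasi-likelihood test (Benjamini-Hochberg adjusted p under 0.05 and a log2 fold change beyond 1 in either direction), against 0.0892% of the 14579 tested genes. At an unadjusted p under 0.05 the count was also 0 of 10, against 12.5% of the tested genes (9.12% lower and 3.4% higher in the DSS+BV group), and DESeq2 likewise called 0 of 10, against 2.07% of 15808 genes. The adjusted p-values lay between 0.549 (Atf4) and 0.998 (Ern1) with edgeR, and between 0.574 and 0.996 with DESeq2. The median log2 fold change (DSS+BV against DSS) was -0.014 over the 10 genes and -0.011 over all tested genes. In all 10 genes the values of the groups overlapped, whereas the groups did not overlap in 17.6% of the tested genes (11.3% lower and 6.37% higher).

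For 9 of the 10 genes, all but Ern2, the 95% interval of the fold change lay within a 2-fold change in either direction. The intervals come from the edgeR standard errors (SE), which ran from 0.151 (Pdia4) to 0.539 (Ern2) on the log2 scale, against a median of 0.240 over the tested genes. Expected counts of the 10 genes ran from 134 (Ddit3, DSS 1) to 14956 (Hsp90b1, DSS 3). For Ddit3, the least abundant, counting error alone is of the size of the spread between the DSS+BV mice. A permutation of 3 mice against 3 allows no two-sided exact p below 0.1.

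**Figure D1:**
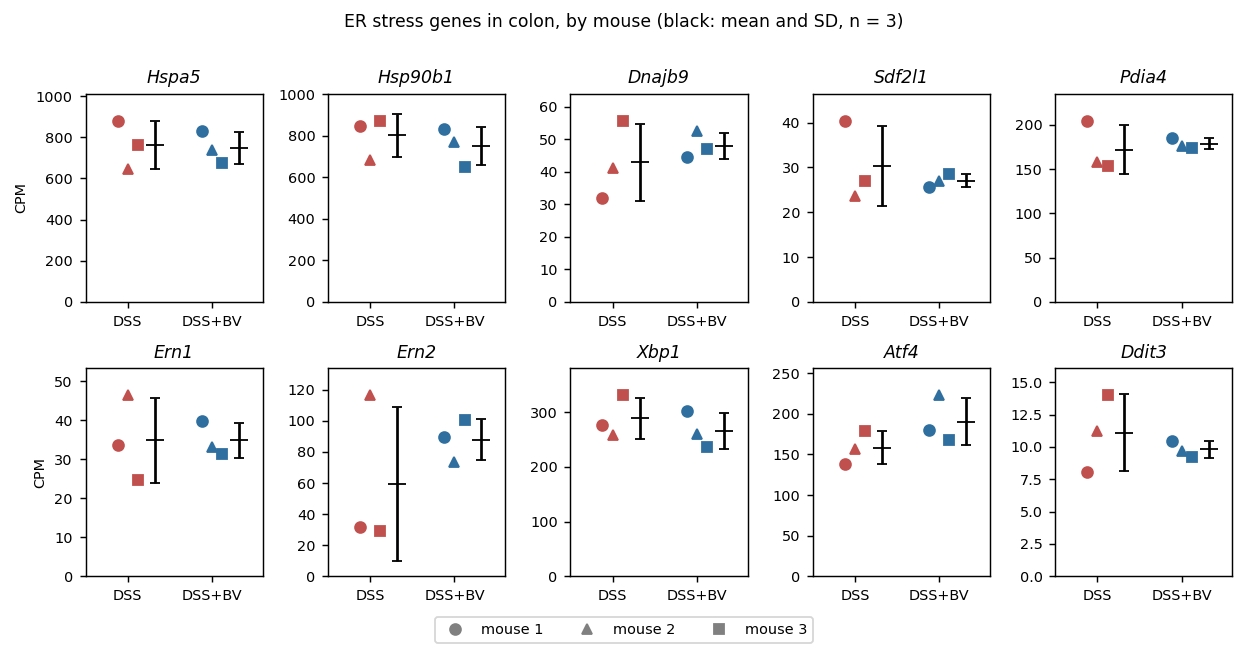
Normalised expression (CPM, axis from 0) of the 10 ER stress genes in each of the 6 mice. Points are mice, and black bars give the mean and SD of each group (n = 3). The groups overlap in every panel, and the DSS mice spread most in Ern2, from 29.2 to 116 CPM.

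The libraries differed in their cell markers, some across the groups and some between them. Summed CPM of 10 B cell markers was between 221 and 357 in the libraries DSS 1, DSS 3 and DSS+BV 1, and between 13.1 and 24.99 in the remaining 3. The most abundant of 7 proximal colon genes was Cyp2c55, which ranged from 8.32 to 3776 CPM. Their sum was lower in the first 3 libraries (134, 288 and 375 CPM) than in the others (1379, 3472 and 4540 CPM). The sum of 8 distal colon genes, the most abundant of them Sprr2a3 (239 to 1296 CPM), did not run opposite to the proximal sum. It was 1216, 768 and 1783 CPM in DSS libraries 1 to 3. In DSS+BV libraries 1 to 3 it was 1120, 1658 and 1603 CPM. Of the 7 distal genes tested, 5 were lower and 2 higher in the DSS+BV group. Hoxa13, a lower gene named after its values were seen, had 15.1, 21.0 and 11.1 CPM in the DSS libraries. It had 15.6, 4.46 and 0.19 CPM in the DSS+BV libraries. Of 12 epithelium markers, 12 passed the filter and were tested, with Krt8 the most abundant at 3290 CPM or more in every library. These markers do not by themselves place the tissue in the colon. The summed epithelium level was 12720 to 14860 CPM in the DSS group and 16400 to 21550 CPM in the DSS+BV group, without overlap. All 12 had a higher fitted level in the DSS+BV group (median log2 fold change 0.46). Of these, 0 were called, against 0.0892% of the tested genes. An edgeR unadjusted p under 0.05 was found for 5 of the 12, against 12.5% of the tested genes. The 10 fibroblast markers summed to 4162 to 4370 CPM and 1528 to 2243 CPM, also without overlap. Of these, 10 were lower, 0 were called and 8 had an edgeR unadjusted p under 0.05. The 13 neutrophil markers, the most abundant of them Ly6g (19.1 to 854.5 CPM), summed to 288 to 1147 CPM and 36.0 to 338 CPM, with overlap. In the DSS+BV group 12 of 12 tested neutrophil genes were lower. An edgeR unadjusted p under 0.05 was found for 11 of them. Of the 13 genes called among all tested genes, 6 were neutrophil markers. Of 10 pancreatic acinar genes, which would mark adjoining pancreas with its high content of ER chaperones, 2 passed the filter and the list summed to 32.7 to 114 CPM, most of it Cela1. In bulk tissue, fewer cells of a type and less RNA per cell cannot be told apart.

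Hspa5 (Entrez gene 14828, chr2:34772090-34776529) encodes BiP, the main Hsp70 chaperone of the ER, which also holds the 3 sensors inactive. Listed here and below in the order of replicates 1, 2 and 3, the DSS mice had 878, 647 and 763 CPM and the DSS+BV mice 833, 738 and 676 CPM. All DSS+BV mice fell between the lowest and the highest DSS mouse. On the log2 scale the fold change was -0.03 (SE 0.179, edgeR adjusted p = 0.964), with a 95% interval of 0.730- to 1.32-fold.

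Hsp90b1 (Entrez gene 22027, chr10:86690841-86705444) encodes GRP94, the Hsp90 chaperone of the ER, and stood at nearly the same CPM as Hspa5. The values were 849, 685 and 871 CPM in the DSS mice and 832, 770 and 649 CPM in the DSS+BV mice. The lowest of the 6 was DSS+BV 3 and the next DSS 2, so that both groups held a low mouse. The interval of its fold change was 0.697- to 1.26-fold (edgeR adjusted p = 0.849). The ratio of Hspa5 to Hsp90b1 CPM, taken within each library, stayed between 0.876 (DSS 3) and 1.04 (DSS+BV 3), a narrower range than that of either gene.

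In both chaperone genes the promoter holds the ER stress response element (ERSE), the sequence through which ATF6, with the CCAAT-binding factor NF-Y, acts. The 250 bases before the annotated start are shown for the pair because no other of the 10 genes held a full match. Promoter windows of 250 bases before to 50 after the start were taken from RefSeq (GRCm38.p6) and matched 9 of the 10 genes, all but Ern2. The capitals mark the fixed letters of the element, CCAAT and, after 9 bases of any kind, CCACG, searched on both strands, so the second match of Hsp90b1 reads as its reverse complement.
Hspa5, chr2:34771840-34772089, plus strand: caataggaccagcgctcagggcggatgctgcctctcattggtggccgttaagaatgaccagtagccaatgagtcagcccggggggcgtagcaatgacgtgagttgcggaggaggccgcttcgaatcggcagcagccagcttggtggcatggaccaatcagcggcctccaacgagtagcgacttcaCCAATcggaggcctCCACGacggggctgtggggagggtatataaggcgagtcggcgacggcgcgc
Hsp90b1, chr10:86705445-86705694, minus strand: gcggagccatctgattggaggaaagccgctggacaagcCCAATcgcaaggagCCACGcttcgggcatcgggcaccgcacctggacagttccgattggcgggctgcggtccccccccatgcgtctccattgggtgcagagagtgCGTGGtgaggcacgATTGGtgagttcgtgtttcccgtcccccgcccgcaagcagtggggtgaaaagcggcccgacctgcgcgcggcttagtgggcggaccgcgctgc

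A full match to the element was rare: 39 of 32851 promoter windows (0.119%) held one. Among the other genes of the unfolded protein response taken up here, 8 of the 87 with a window did. These were Calr and Canx (lectin chaperones of glycoproteins), Pdia6 and Ero1b (disulfide formation), Dnajc3 (a co-chaperone of BiP), Creld2 (a secreted ER stress protein), Derl3 and Syvn1 (export and ubiquitination of misfolded proteins). Their matches are given on the strand where they read 5′ to 3′, to show that the 9 bases between the fixed letters differ from gene to gene.
Calr: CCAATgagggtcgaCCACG
Canx: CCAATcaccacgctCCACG
Pdia6: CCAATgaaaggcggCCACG
Ero1b: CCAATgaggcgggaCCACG
Dnajc3: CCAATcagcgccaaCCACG
Creld2: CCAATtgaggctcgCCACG
Derl3: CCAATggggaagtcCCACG
Syvn1: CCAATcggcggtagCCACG
Of the 37 genes with the element in any window, 19 were tested, with 12 lower and 7 higher in the DSS+BV group. Their median log2 fold change was -0.06, and 0 were called, against 0.0892% of the tested genes. The second form of the element (ATTGG, 1 base of any kind and CCACG, 0.0365% of windows), the XBP1 element (TGACGTGG, 0.676%) and the ATF4 element (ATTGCATCA, 0.192%) had no match in the 9 windows, on either strand. A match is a match of letters in this window and does not show that a factor was bound.

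**Figure D2:**
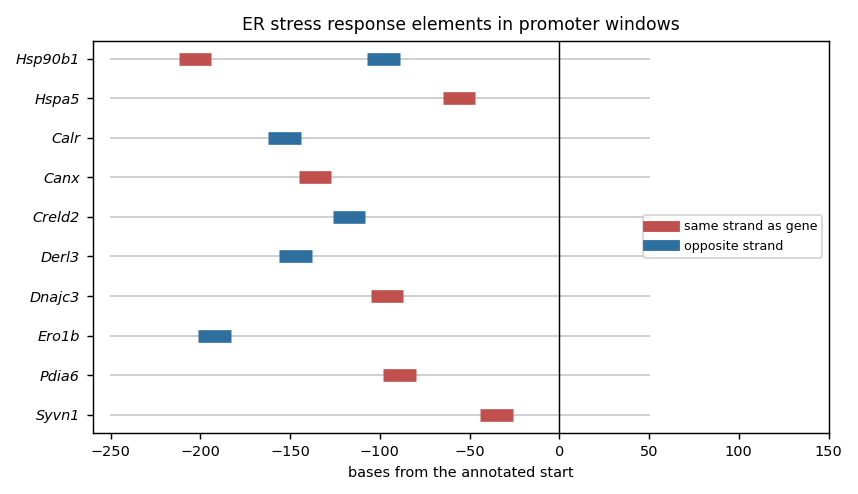
Places of the ER stress response element in the promoter windows of Hspa5, Hsp90b1 and 8 other genes of the unfolded protein response. Positions are in bases from the annotated start (0), and the window is drawn as a grey line. Red marks the strand of the gene and blue the opposite strand. Hsp90b1 holds 2 full matches and each of the other genes 1, all of them before the start. Sites that differ from the fixed letters were not counted.

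The remaining chaperone genes were less abundant. Pdia4 (Entrez gene 12304, chr6:47796141-47813512) encodes ERp72, a protein disulfide isomerase. The DSS mice had 204, 158 and 154 CPM and the DSS+BV mice 186, 176 and 174 CPM. The DSS+BV mice lay close together and inside the DSS range, and the fold change had the smallest standard error of the 10 genes (log2 fold change 0.05, interval 0.809- to 1.33-fold, edgeR adjusted p = 0.904).

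Sdf2l1 (Entrez gene 64136, chr16:17130138-17132383) encodes a partner of the BiP co-chaperones. Its values were 40.3, 23.6 and 27.0 CPM in the DSS mice and 25.6, 26.9 and 28.6 CPM in the DSS+BV mice. A single mouse, DSS 1, stood above the other 5. The log2 fold change of -0.16 (SE 0.223, edgeR adjusted p = 0.785) became 0.09 without that mouse.

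Dnajb9 (Entrez gene 27362, chr12:44205897-44210068) encodes ERdj4, a BiP co-chaperone that also holds IRE1 in check. It was at 32.1, 41.2 and 55.6 CPM in the DSS mice and at 44.6, 52.4 and 47.0 CPM in the DSS+BV mice. The DSS group held both the lowest and the highest value. The interval of its fold change was 0.784- to 1.596-fold (edgeR adjusted p = 0.782), and the log2 fold change of 0.16 became -0.01 without DSS 1.

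The mean log2 CPM over the 5 chaperone genes was 7.50, 7.20 and 7.43 in the DSS mice and 7.42, 7.41 and 7.32 in the DSS+BV mice. The group means were 7.38 ± 0.161 and 7.38 ± 0.0566 (SD, n = 3 each). DSS 1 was highest and DSS 2 lowest, and the DSS+BV mice sat between them.

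The sensor Ern1 (Entrez gene 78943, chr11:106397620-106487796) encodes IRE1 alpha, which most cells carry. It was at 33.7, 46.3 and 24.6 CPM in the DSS mice and at 39.8, 33.2 and 31.4 CPM in the DSS+BV mice. The group means were 34.9 ± 10.9 and 34.8 ± 4.40 CPM (SD, n = 3 each). The interval of the fold change was 0.663- to 1.503-fold (edgeR adjusted p = 0.998).

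Ern2 (Entrez gene 26918, chr7:122169893-122186239) encodes IRE1 beta, the form of mucosal epithelium, and varied most among the 10 genes. The DSS mice had 31.8, 116 and 29.2 CPM and the DSS+BV mice 89.4, 73.8 and 100.3 CPM. DSS 1 and DSS 3 were low, whereas DSS 2 was the highest of all 6 mice. On the log2 scale the fold change was 0.57 (SE 0.539, edgeR adjusted p = 0.685), and its interval of 0.609- to 3.62-fold leaves room for a change in either direction. Without DSS 2 the log2 fold change was 1.54 (SE 0.177, edgeR adjusted p = 0.0748), still short of the threshold. Without DSS 1 or DSS 3 it was 0.28 or 0.25. The value between the groups thus turned on which DSS mice were in the fit. DSS 2 is also the DSS mouse with the low B cell sum and the high proximal colon sum given above. With the B cell marker level as a covariate, an alternative chosen after seeing the data, the log2 fold change of Ern2 was 0.50 (SE 0.455, edgeR adjusted p = 0.814). The part of the proximal colon level was not tested.

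**Figure D3:**
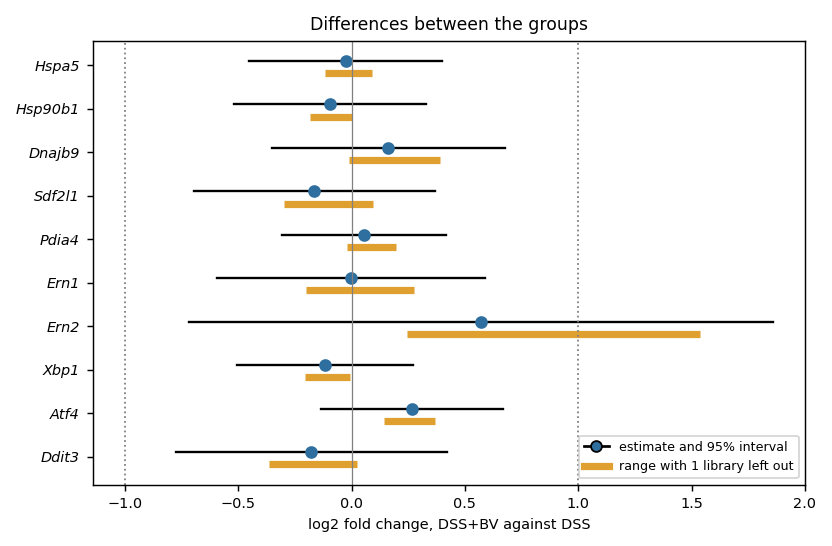
Log2 fold changes of the 10 genes, DSS+BV against DSS, with the 95% interval (black) and the range of the estimate when each library was left out in turn (orange). Dotted lines mark a 2-fold change. Only the interval of Ern2 passes one of them, and its estimate ran from 0.25 to 1.54 with 1 library left out.

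The goblet cell genes differed in how they ran beside Ern2. Agr2, a protein disulfide isomerase needed for mucin, was at 310, 1235 and 473 CPM in the DSS mice and at 1032, 1022 and 1195 CPM in the DSS+BV mice, and it was low in the same mice as Ern2. The ratio of Ern2 to Agr2 CPM ran from 0.0619 (DSS 3) to 0.103 (DSS 1), while Ern2 alone covered a 3.98-fold range. Muc2, the gel-forming mucin of the colon, was at 2339, 10171 and 4239 CPM in the DSS mice and at 6878, 8265 and 20700 CPM in the DSS+BV mice. The ratio of Ern2 to Muc2 CPM ran more widely than that to Agr2, from 0.00484 (DSS+BV 3) to 0.0136 (DSS 1). The goblet cell factor Spdef was, like Muc2, lowest in DSS 1 and DSS 3, at 16.1 and 27.4 CPM. Other goblet genes took another course: the secreted proteins Clca1, Zg16 and Tff3 were highest in DSS 3, at 5508, 4791 and 929 CPM, where Ern2 was lowest. Over the 12 goblet markers 8 were higher and 4 lower in the DSS+BV group (median log2 fold change 0.25). Of these, 0 were called, against 0.0892% of the tested genes. The summed goblet level overlapped between the groups (9252 to 22160 CPM against 17050 to 29750 CPM).

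**Figure D4:**
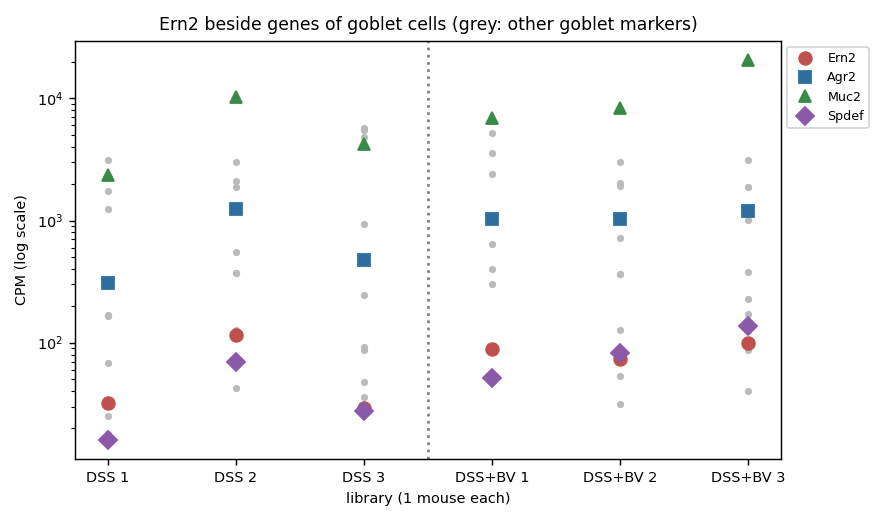
CPM (log scale) of Ern2, Agr2, Muc2 and Spdef in each library, with the other goblet cell markers in grey and a dotted line between the groups. Ern2 and Agr2 are both low in DSS 1 and DSS 3, at 31.8 and 29.2 CPM for Ern2.

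Measured against Ern1 in the same library, Ern2 was at a CPM ratio of 0.945, 2.51 and 1.19 in the DSS mice and of 2.25, 2.23 and 3.19 in the DSS+BV mice. The ratio was low in the same pair of DSS mice, and the groups overlapped through DSS 2.

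Xbp1 (Entrez gene 22433, chr11:5520641-5525993) encodes the factor that IRE1 activates, which drives secretory capacity and is essential to plasma cells. The DSS mice had 277, 258 and 331 CPM and the DSS+BV mice 302, 260.1 and 237 CPM. The highest values came from DSS 3 and DSS+BV 1, 1 mouse of each group. The log2 fold change was -0.12 (SE 0.163, interval 0.704- to 1.21-fold, edgeR adjusted p = 0.791). The plasma cell gene Jchain was also highest in DSS 3 and DSS+BV 1, at 1378 and 937 CPM, against 235 to 537 CPM in the other mice. The 10 plasma cell markers summed to 854 to 1829 CPM in the DSS group and 600 to 1302 CPM in the DSS+BV group. Of these, 8 were lower, 2 higher and 0 called, against 0.0892% of the tested genes called. The part of plasma cells in the Xbp1 level was not tested.

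Atf4 (Entrez gene 11911, chr15:80255184-80257545) encodes the factor translated when PERK or a related kinase slows protein synthesis, and it had the smallest p of the 10 genes. It was at 138, 157 and 179 CPM in the DSS mice and at 180, 223 and 168 CPM in the DSS+BV mice. DSS+BV 1 and DSS+BV 2 lay above all DSS mice and DSS+BV 3 below DSS 3. The means were 158 ± 20.5 and 190 ± 28.8 CPM (SD, n = 3 each), and the log2 fold change was 0.27 (SE 0.168, interval 0.911- to 1.59-fold, edgeR adjusted p = 0.549). With each library left out in turn the log2 fold change stayed between 0.14 and 0.37.

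Ddit3 (Entrez gene 13198, chr10:127290793-127296291) encodes CHOP, a factor downstream of ATF4 that is linked to cell death under lasting ER stress, and had the fewest counts of the 10 genes. It was at 8.02, 11.3 and 13.98 CPM in the DSS mice and at 10.5, 9.68 and 9.23 CPM in the DSS+BV mice. The DSS+BV mice all lay inside the DSS range. The log2 fold change was -0.18 (SE 0.250, interval 0.585- to 1.34-fold, edgeR adjusted p = 0.791). The ratio of Ddit3 to Atf4 CPM was 0.0580, 0.0718 and 0.0780 in the DSS mice and 0.0582, 0.0435 and 0.0551 in the DSS+BV mice, overlapping between DSS 1 and DSS+BV 1. The span of Ddit3 overlaps those of Mars1 and Mbd6, and that of Hspa5 overlaps Rabepk, so reads there may be shared where strand was not used in counting, which the sources used here do not give.

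The DSS mice held the extremes of these genes more often than the DSS+BV mice. In 9 of the 10 genes, all but Atf4, the highest value came from a DSS mouse, which held for 61.2% of the tested genes. In 7 of the 10 all DSS+BV mice lay within the DSS range, against 25.5% of the tested genes. The SD of log2 CPM was larger in the DSS group in 9 of the 10 genes, against 66.9% of the tested genes, with medians of 0.305 (DSS) and 0.163 (DSS+BV) over the 10 and 0.303 and 0.192 over the tested genes. No single DSS mouse supplied the extremes: DSS 1 was highest in 3 genes, DSS 2 in 2 and DSS 3 in 4.

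CPM was also divided by exon length, taken as the union of protein-coding exons and not the length of the transcripts present. The order of the genes depends on that choice. Hsp90b1 (2825 bases) led with a mean of 275 CPM per kb over the 6 libraries (range 230 to 308). Hspa5 (3754 bases) followed at 201 (172 to 234). Their ranges overlapped, but Hsp90b1 was above Hspa5 in each library. Xbp1 at 116 CPM per kb overlapped with Atf4 at 101, and Atf4 with Pdia4 at 73.1. Sdf2l1 (25.9) lay above Dnajb9 (18.5) in each library, and Dnajb9 above Ddit3 (11.7), although the ranges of both pairs overlapped. Ern2, with a mean of 25.2 and a range of 10.03 to 39.96 CPM per kb, overlapped with all 3 and could not be placed among them. Ern1 was lowest at 4.27 CPM per kb, and its range of 3.02 to 5.68 did not reach that of any other of the 10.

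Levels of 4 of the genes were also set against summed markers of 3 secretory or epithelial cell types, as log2 ratios within each library. In 12 ratios (Ern2, Xbp1, Hspa5 and Sdf2l1 against goblet, epithelium and plasma cell markers) the smallest adjusted p was 0.6 (two-sided exact permutation test, n = 3 per group, Benjamini-Hochberg over the 12). Xbp1 and Hspa5 relative to the epithelium markers were lower in each DSS+BV mouse than in each DSS mouse. The difference was -0.55 for Xbp1 and -0.46 for Hspa5 on the log2 scale, both at an exact p of 0.1, the smallest that 3 against 3 can give. Their CPM overlapped between the groups, whereas the epithelium sum was higher in the DSS+BV group without overlap. The log2 fold changes of the genes themselves were -0.12 (Xbp1) and -0.03 (Hspa5). Most of each ratio difference therefore lay in the epithelium sum by which the gene was divided. Why that sum differed was not tested. The ratio of Ern2 to the epithelium markers overlapped between the groups (difference 0.44, exact p = 0.5).

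The other genes of the unfolded protein response were followed in 5 lists with 111 different genes, all tested. None was called with edgeR, where the smallest adjusted p was 0.123. At an unadjusted p under 0.05 there were 9 (8.11%, against 12.5% of the tested genes), 7 lower and 2 higher in the DSS+BV group, and 17 had groups that did not overlap (15.3%, against 17.6%). The median log2 fold change over the 111 was 0.04. DESeq2 called 1 of the 111, Cebpb, against 2.07% of 15808 genes.

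Among 25 ER chaperones and folding enzymes, 16 were higher and 9 lower (median log2 fold change 0.11). An edgeR unadjusted p under 0.05 was found for 0 of them, against 12.5% of the tested genes. The smallest p-values belonged to Erp44, which retrieves client proteins to the ER, to the oxidase Ero1a and to the disulfide isomerase Txndc5, with log2 fold changes of 0.19, -0.27 and 0.42. Erp44 was at 87.8, 93.7 and 91.9 CPM in the DSS mice and at 107, 102 and 102 CPM in the DSS+BV mice, without overlap, but at an edgeR adjusted p of 0.519.

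Of 18 genes of ER-associated degradation, which sends misfolded proteins to the proteasome, 12 were higher and 6 lower (median 0.03). The ubiquitin ligase Syvn1, with the element shown above, was at 63.5, 59.2 and 66.9 CPM in the DSS mice and at 84.7, 79.4 and 76.0 CPM in the DSS+BV mice. All DSS+BV mice lay above all DSS mice, with a log2 fold change of 0.34 (SE 0.115, unadjusted p = 0.0223, edgeR adjusted p = 0.347). Aup1, which brings ubiquitin-conjugating enzyme to the ER, had 0.29 and the mannosidase-like Edem3 had 0.50, at adjusted p-values of 0.428 and 0.543 by the same edgeR test.

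The 21 genes of the translocon, signal peptidase and signal recognition particle had a median of 0.05, with 14 higher and 7 lower. Srp14, a small subunit of the signal recognition particle, was at 37.3, 36.3 and 48.2 CPM in the DSS mice and at 29.6, 29.8 and 29.9 CPM in the DSS+BV mice. Its log2 fold change was -0.45 (edgeR adjusted p = 0.356). Those of the translocon subunit Sec61g and of its partner Sec63 were -0.26 and 0.18.

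Among 26 genes known as targets of ATF4 or CHOP, 16 were lower and 10 higher (median -0.19). An edgeR unadjusted p under 0.05 was found for 5 (19.2%), against 12.5% of the tested genes. All 5 were lower, against 9.12% of the tested genes in that direction. Cebpb, a transcription factor that acute inflammation also induces, was at 33.6, 25.6 and 33.3 CPM in the DSS mice and at 12.3, 14.5 and 10.2 CPM in the DSS+BV mice. The groups stood well apart, with a log2 fold change of -1.32 (SE 0.203) and an adjusted p of 0.123 with edgeR and 1.62e-05 with DESeq2. Ddit4, an inhibitor of mTORC1 that hypoxia and glucocorticoids also raise, and the factor Atf5 had log2 fold changes of -0.84 and -0.60. Their edgeR adjusted p-values were 0.329 and 0.345. The others of the 5, Slc7a11 (cystine uptake) and Eif4ebp1 (a repressor of translation), are named after their values were seen and had -1.04 and -0.72. Of the 10 higher genes, Cth and Atf3 had the largest log2 fold changes, 0.87 and 0.82, and are also named after their values were seen. The summed fibroblast markers given above were lower in the DSS+BV group without overlap. The neutrophil sums reached lower there but overlapped (288 CPM in DSS 2 against 338 CPM in DSS+BV 1). The part of either in the values of the ATF4 and CHOP targets was not tested.

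Of 21 sensors and regulators, 12 were higher and 9 lower (median 0.07). Nfe2l2, which encodes the oxidative stress factor NRF2, a substrate of PERK, had a log2 fold change of 0.60 (edgeR adjusted p = 0.356), with overlap between the groups. Creb3l2, an ATF6-related membrane-bound factor, had -0.51 and Ppp1r15b, a subunit of the phosphatase that restores protein synthesis, had 0.24. Neither passed the threshold (edgeR adjusted p = 0.358 and 0.498), and in both the groups did not overlap.

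**Figure D5:**
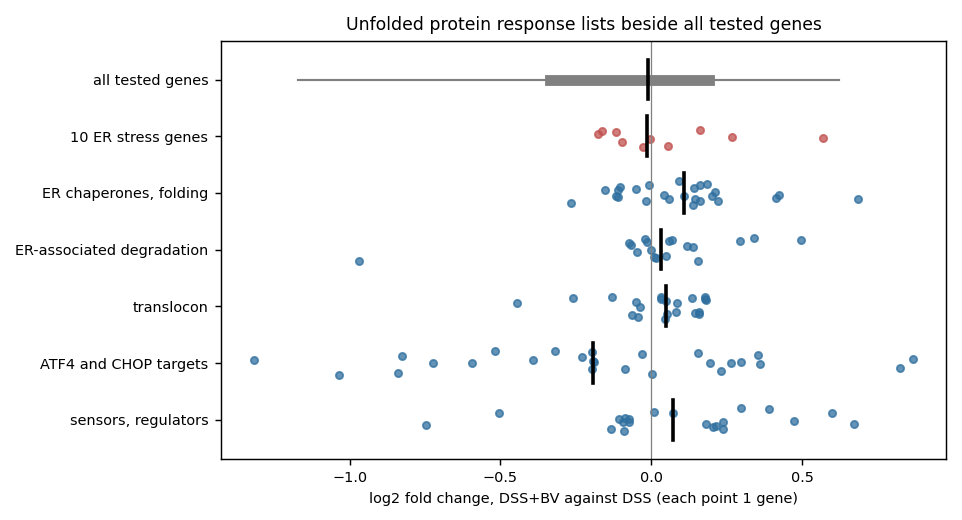
Log2 fold changes, DSS+BV against DSS, of the 10 ER stress genes (red) and of the genes of 5 unfolded protein response lists (blue), with the median of each as a black bar. For all tested genes the thick grey line spans the 25th to the 75th percentile and the thin line the 5th to the 95th percentile, from -1.17 to 0.62. The 10 genes lie between -0.18 and 0.57, and the ATF4 and CHOP targets have the lowest median, -0.19.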

How the data were processed

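Colon RNA of 6 mice was sequenced on a DNBSEQ-T7 instrument. The authors quantified genes with RSEM and deposited expected counts per gene, not scaled between libraries. The submitters' processing notes list HISAT2 2.1.0, Bowtie2 2.2.5, RSEM 1.2.8 and GRCm38.p6. Of 18477 genes, 1573 had a value that is not whole, and none of the 10 ER stress genes did. Totals lay between 15293276 and 17254343.

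Expected counts were rounded, filtered with filterByExpr (minimum count 10, minimum total 15), scaled with TMM factors and fitted in edgeR 4.0.16 (R 4.3.3), whose quasi-likelihood test covered 14579 genes. The study's methods used DESeq2, which was run as an alternative (version 1.42.0). CPM is relative to the TMM-scaled total. The 95% intervals use the standard error implied by the F statistic and the residual plus prior degrees of freedom. SDs of log2 CPM use a pseudocount of 0.5. Exon lengths are the union of protein-coding exons in GENCODE M21, and gene positions and promoters come from RefSeq, all GRCm38. Older symbols of 3 listed pathway genes were matched through RefSeq synonyms. The fit was also run on simulated data, and its recovery of set changes is not reported here.

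The 10 genes and the lists were chosen with earlier results of these data known, so no p was adjusted over a list alone. Named genes are the 10, called list genes, the 3 of each pathway list with the smallest p, the most abundant gene of a marker list and the pathway genes with a promoter match. Agr2, Spdef, Clca1, Zg16 and Tff3 are named outside this rule, for their levels beside Ern2. Hoxa13, Slc7a11, Eif4ebp1, Cth and Atf3 are outside it too. Replicate pairs differed beyond sampling noise (chi-square per degree of freedom 42.7 to 118). The labels do not say how mice were caged or processed, so p-values measure the spread between these samples. Alternatives were RLE and upper-quartile factors, other filters, the adjusted p alone, the replicate number as a block, each library left out and marker sums without their most abundant gene. A covariate for B cell markers was added after the data were seen.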

Additional observations from a re-analysis of the deposited data

How the results depend on the processing

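The count of the 10 ER stress genes called, 0 in each direction, was the same under each alternative tried. Over all genes, edgeR called 13 lower and 0 higher, DESeq2 called 281 and 46, and with 1 library left out edgeR called 0 to 3 lower and 0 to 4 higher. In the 111 pathway genes DESeq2 called 1 lower gene and the other settings 0. The replicate number did not pair the mice: deviations of same-numbered libraries correlated at 0.267, 0.255 and -0.296. With it as a block, 0 genes were called, and 0 of the 10. No adjusted p of the 10 genes passed in these alternatives, from 0.0748 for Ern2 without DSS 2 upwards. Signs of values near 0 turned. Hspa5, at -0.03, became 0.0047 with every gene with a count kept and 0.0799 with the B cell marker covariate, and ran from -0.116 to 0.0881 with 1 library left out. Hsp90b1, at -0.10, became 0.0125 with that covariate and ran from -0.183 to 0.0026. Ern1, at -0.0028, became 0.0177 with DESeq2, 0.0097 with RLE factors, 0.0254 with every gene kept, 0.0059 with 1 CPM in 3 libraries and 0.0376 with the block, and ran from -0.200 to 0.274. With 1 library left out, Dnajb9 ran from -0.0105 to 0.391, Sdf2l1 from -0.297 to 0.0950, Pdia4 from -0.0191 to 0.198 and Ddit3 from -0.364 to 0.0242. Of the log2 ratios to marker sums, Ern2 to goblet markers ran from -0.184 to 0.927, Hspa5 to goblet from -0.721 to 0.0152, Sdf2l1 to goblet from -0.894 to 0.0246 and Sdf2l1 to plasma cell markers from -0.0458 to 0.792. Without the most abundant marker, Muc2 or Jchain, Hspa5 to goblet was 0.0110, Xbp1 to plasma cell markers -0.0913 and Sdf2l1 to plasma cell markers -0.104. The causes were not tested. The intervals with 3 mice per group reach 1.21- to 1.596-fold upwards for 9 of the genes and 3.62-fold for Ern2.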
